A study of Saccharomyces cerevisiae with 25 samples.

Results

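The genes described here encode trans-acting factors that build the 60S subunit, the large subunit of the ribosome, and carry it out of the nucleus in the yeast Saccharomyces cerevisiae. The set was given as 53 gene names chosen for their known roles. A member is a row of the expression table whose name equals one of these, and 52 were found among 6648 named genes. REA1, an AAA ATPase that strips factors off the particle, is no row name. RefSeq lists REA1 as a synonym of MDN1, and the MDN1 row is given apart and is in no count below.

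The series is 1 time course of RNA-seq on total RNA from a strain in the BY4741 background that carries pho84pr-YFP and is marked delta-phm3. The gene PHM3 now goes by VTC4 and encodes the polymerase subunit of the complex that makes polyphosphate, a phosphate store of the vacuole, and PHO84pr-YFP puts a fluorescent protein under the promoter of a phosphate transporter gene. Cells were grown in high phosphate medium, washed and moved to medium with no phosphate, and a sample was frozen every 15 min up to 360 min, which gave 24 libraries without phosphate and 1 library from high phosphate at 0 min. Every library, the one from high phosphate included, is labelled with both the reporter and the deletion, and no wild-type strain, phosphate-fed time course or replicate of a time point was analysed here.

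Levels are log2 RPM, the log2 of a gene's reads per 1000000 listed reads, so each is a share of its library and moves when other transcripts change. The median library held 746734 reads. The deepest was 105 min (1911747 reads), and the shallowest were 195 min (106672) and 345 min (188278). A gene with fewer than 10 reads has no value. VTC4 was listed in all 25 libraries with 50 to 517 reads (7.66 to 8.87 log2 RPM, 7.92 at 0 min), which goes against the label of a phm3 deletion. Which part of the gene was removed is not stated, and all results below are for libraries labelled phm3_del. BY4741 is of mating type a. The a-type genes MFA1 and MFA2 averaged 10.75 and 10.78 log2 RPM over 25 libraries, the alpha-type genes STE3 and SAG1 averaged 4.85 and 4.34 where listed, and of the alpha-factor genes MF(ALPHA)2 had no value anywhere (0 libraries) and MF(ALPHA)1 had one in 1 library. The 90 and 105 min libraries stood apart from their neighbours. The median of 4393 tested genes differed from 0 min by 0.06 at 90 min and -0.01 at 105 min, against 0.16 to 0.40 at 15 to 75 min and 0.21 or more from 120 min on. Of 16 tested PHO regulon genes, the phosphate starvation genes driven by Pho4, none was below its 0 min level in any library. Their median change was 1.71 and 2.03 at 90 and 105 min, against 2.84, 2.51 and 2.99 at 60, 75 and 120 min.

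A yeast ribosome begins in the nucleolus, where RNA polymerase I transcribes a precursor that is cut, methylated and folded while scores of factors bind and leave. Helicases, methyltransferases and scaffold proteins act early on the large subunit precursor, GTPases and AAA ATPases act as checkpoints on the way to the nucleoplasm, and export adaptors escort it through the nuclear pore before the last factors are removed in the cytoplasm. Most of these genes belong to the ribosome biogenesis (RiBi) regulon, which growing cells express strongly and which is shut down in many stresses. Its promoters are known for a pair of short motifs. The PAC box is bound by the repressors Dot6 and Tod6, and the RRPE (ribosomal RNA processing element) is bound by Stb3.

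Sequence upstream of 7 members is shown because these genes bracket the responses described below. YTM1, ARX1, HAS1 and RRS1 moved widely, DBP2 lay farthest below 0 min at 15 to 60 min, and SPB4 and TIF6 had the smallest differences there and in the return that followed. Each line gives 200 bases of the sense strand of the gene, from 250 to 51 bases before the start codon, from the RefSeq copy of the R64 genome. Capitals mark the PAC core (GATGAG, or CTCATC where it lies on the other strand) and the RRPE core (AAAATTTT, the same on both strands).
YTM1 (chrXV:832563-832762, plus strand): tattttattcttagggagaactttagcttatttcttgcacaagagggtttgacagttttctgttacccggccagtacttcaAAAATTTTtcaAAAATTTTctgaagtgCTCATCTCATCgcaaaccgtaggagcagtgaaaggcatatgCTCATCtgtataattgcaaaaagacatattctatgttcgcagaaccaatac
ARX1 (chrIV:657518-657717, minus strand): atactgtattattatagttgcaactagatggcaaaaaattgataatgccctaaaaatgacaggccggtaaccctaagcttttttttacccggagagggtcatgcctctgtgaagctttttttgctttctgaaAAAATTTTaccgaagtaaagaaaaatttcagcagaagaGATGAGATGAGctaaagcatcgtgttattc
HAS1 (chrXIII:851642-851841, minus strand): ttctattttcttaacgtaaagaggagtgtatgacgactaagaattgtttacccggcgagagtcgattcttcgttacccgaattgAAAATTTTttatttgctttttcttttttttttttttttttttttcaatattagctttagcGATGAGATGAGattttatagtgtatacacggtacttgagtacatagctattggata
RRS1 (chrXV:868090-868289, plus strand): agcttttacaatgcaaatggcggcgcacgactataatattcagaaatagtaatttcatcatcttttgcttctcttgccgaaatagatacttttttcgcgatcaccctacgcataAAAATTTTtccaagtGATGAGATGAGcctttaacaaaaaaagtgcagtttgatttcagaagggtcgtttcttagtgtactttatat
DBP2 (chrXIV:413389-413588, plus strand): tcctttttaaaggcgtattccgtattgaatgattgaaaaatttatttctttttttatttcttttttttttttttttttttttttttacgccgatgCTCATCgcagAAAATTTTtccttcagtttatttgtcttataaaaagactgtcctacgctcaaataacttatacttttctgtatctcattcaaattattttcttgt
SPB4 (chrVI:146985-147184, minus strand): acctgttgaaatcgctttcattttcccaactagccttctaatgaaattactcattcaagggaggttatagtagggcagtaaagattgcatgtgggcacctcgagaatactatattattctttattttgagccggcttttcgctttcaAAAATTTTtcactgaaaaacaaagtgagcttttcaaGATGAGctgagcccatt
TIF6 (chrXVI:593120-593319, minus strand): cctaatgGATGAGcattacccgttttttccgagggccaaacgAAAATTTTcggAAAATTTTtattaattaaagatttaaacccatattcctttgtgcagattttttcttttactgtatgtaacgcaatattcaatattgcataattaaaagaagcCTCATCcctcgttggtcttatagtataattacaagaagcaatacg

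Both cores were present in all 7 windows. Pairs of PAC cores overlapped in YTM1, ARX1, HAS1 and RRS1 (first bases 142 and 137, 80 and 75, 106 and 101, and 121 and 116 before the start codon). DBP2 had its PAC core at 155 and its RRPE core at 145. SPB4, whose upstream neighbour DEG1 starts 196 bases away on the other strand, had a PAC core at 67 and an RRPE core at 103. TIF6 had PAC cores at 243 and 95 and RRPE cores at 208 and 197. SPB4 and TIF6 had no such overlapping pair, and neither had DBP2. Members not shown did not sort this way throughout. NOP15 (110 and 105) and EBP2 (85 and 80) had such pairs, with log2 differences from 0 min of -1.02 and -1.09 at 15 to 60 min. MAK21, at -2.0, had a single PAC core, at 155. Whether such pairs go with the size of a response was not tested.

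The whole set was searched from 250 bases before to 50 after the start codon, on both strands. The PAC core was present in 47 of 52 members (90.4%) and in 20.4% of 6007 promoters of the same length. The longer PAC form GCGATGAG, which contains the core, was in 31 of 52 (59.6%) and in 3.9% of all. The RRPE core was in 45 of 52 (86.5%) and in 9.0% of all. Both cores were found in 40 of 52 members (76.9%) and in 4.4% of all promoters, and no member lacked both, against 75.0% of all promoters. SPB1, NSA1, RIX1, IPI1 and NOP53 had no PAC core, and each of these 5 had an RRPE core. Genes for 40S assembly factors held the cores at like shares (PAC core 90.0% and RRPE core 73.3% of 60), while the 81 genes for large subunit proteins held them in 9.9% and 7.4%. A match shows the letters only, not a bound site.

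**Figure D1:**
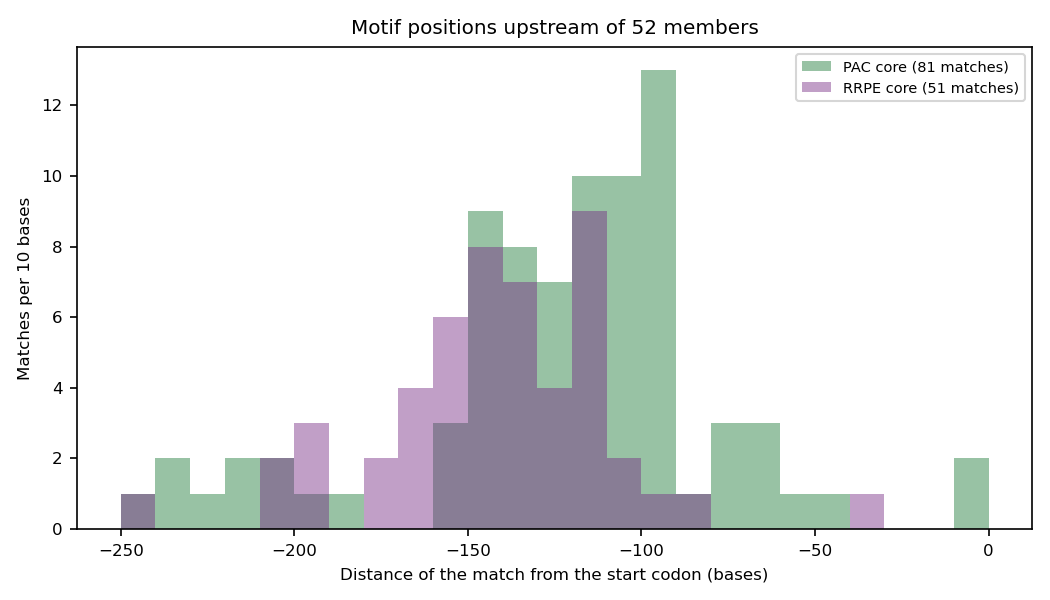
Histogram of the distance in bases from the start codon (x axis, start codon at 0) of 81 PAC core matches (green) and 51 RRPE core matches (purple) upstream of the 52 members, in bins of 10 bases (y axis, matches per bin). The median PAC core lay 119 bases before the start codon (quartiles 99 and 143) and the median RRPE core 141 bases (quartiles 119 and 159).

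The core matches lay close together. Over all promoters the quartiles of the PAC core were 77 and 186 bases and those of the RRPE core 108 and 179 bases, which were wider ranges than among the members. In 28 of 39 members with both cores upstream (71.8%) the farthest RRPE core lay beyond the farthest PAC core, against 63.2% of the 250 promoters of any gene with both. Some of the genes upstream also serve ribosome synthesis. LCP5, which encodes a 40S assembly factor, starts 301 bases from NSA2 on the other strand, and RPC19, for a subunit shared by RNA polymerases I and III, lies upstream of DBP2. For BUD20 it was the ribosomal protein gene RPL10, divergent at 470 bases.

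**Figure D2:**
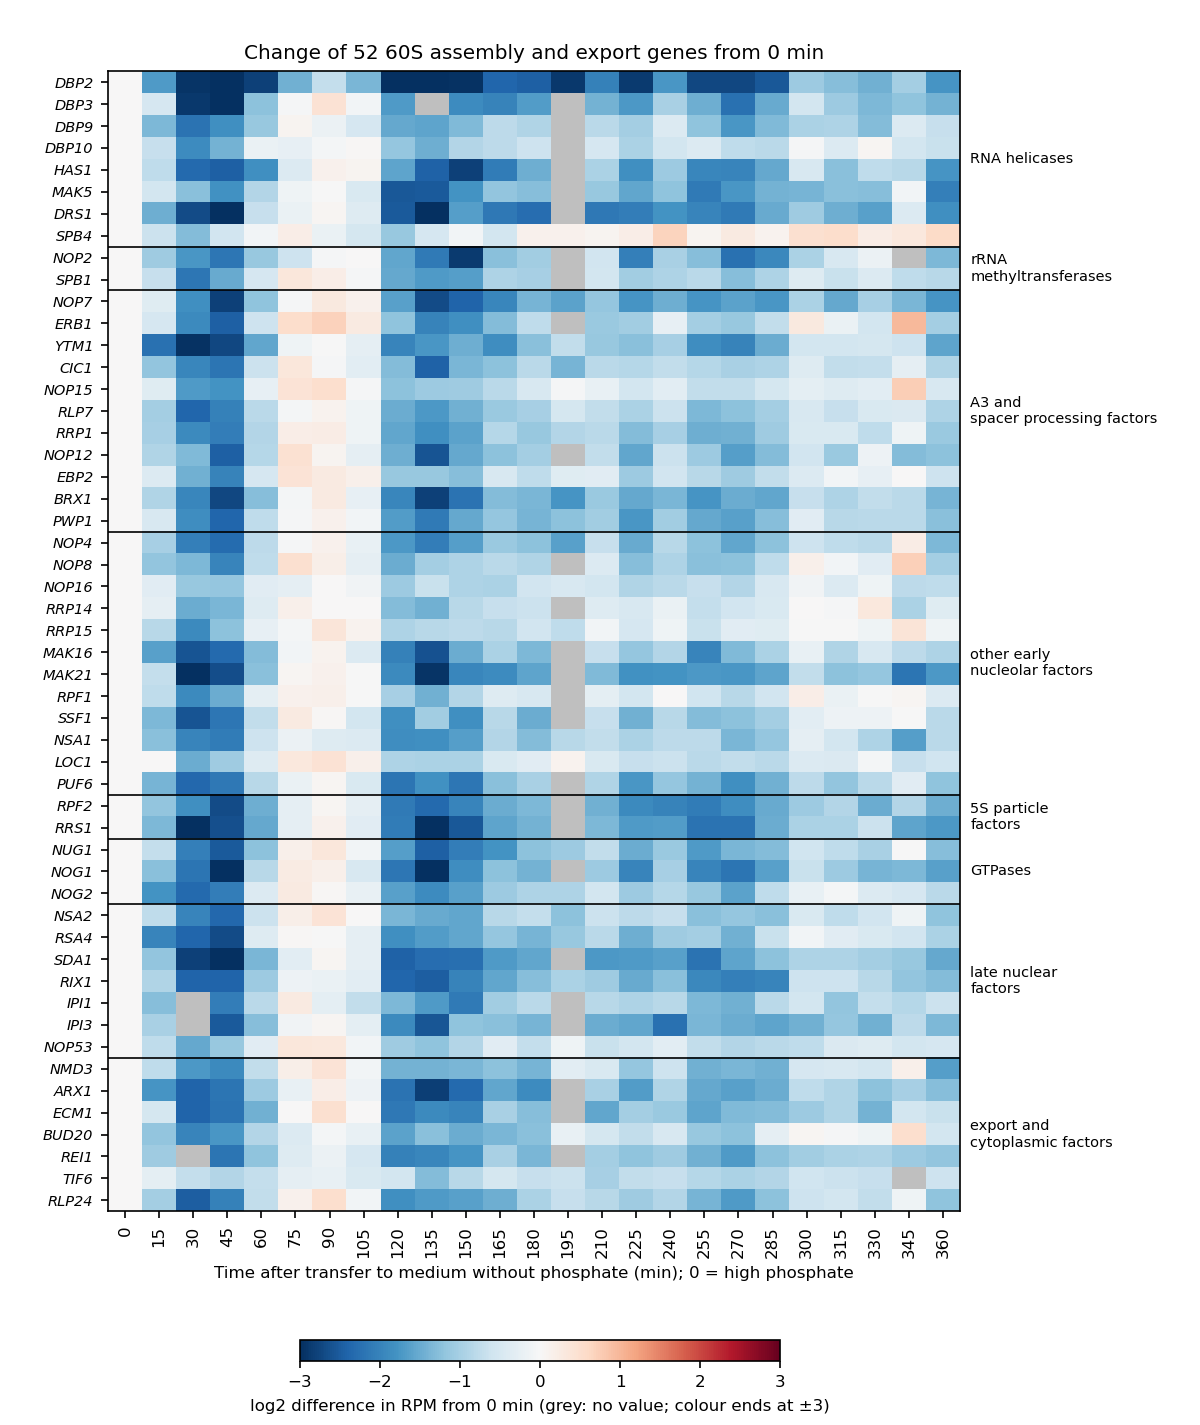
Heat map of the log2 difference in RPM from 0 min for each of the 52 members (rows, by role) in each library (columns, time after transfer in min), with blue below and red above the high phosphate level and grey where a gene has no value. Blue columns at 30 and 45 min and at 120 to 150 min flank a pale block at 75 to 105 min, and SPB4 alone is red through most of the later libraries.

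Across the course the transcripts of these genes stood low, then near their starting level, then low again in the first 150 min, and lay between afterwards. At 15 min all 52 members were below their 0 min level, with a median change of -0.94 (log2). The median change was -1.98 at 30 min (49 members listed) and -2.17 at 45 min, when the median member had 22.2% of its 0 min RPM. Over the next 4 libraries (60, 75, 90 and 105 min) it was -0.81, -0.03, 0.10 and -0.22. At 90 min 37 of 52 members were above their 0 min level, and the median member had 107.2% of it. The next library was low again: the median change was -1.64 at 120 min, with all 52 below 0 min, -1.85 at 135 min and -1.63 at 150 min. From 165 to 285 min it lay between -1.43 and -0.81, leaving out 195 min, where only 26 members were listed. The last 5 libraries, 300 to 360 min, had medians of -0.54, -0.72, -0.70, -0.57 and -1.15. In a bulk sample like this, fewer cells that express a gene and less of its RNA per cell cannot be told apart.

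The timing was shared by most members. The lowest listed value at 15 to 60 min was at 45 min for 30 members and at 30 min for 22. IPI1, IPI3 and REI1, counted at 45 min, had no value at 30 min. They lay below the listing limit there (4.32 log2 RPM), and so below their 45 min values (4.51, 4.36 and 4.78). The highest of the 15 to 120 min libraries was 90 min for 34 members, 75 min for 16 and 105 min for 2, the helicase gene DBP10 and the methyltransferase gene NOP2. The lowest listed value at 120 to 180 min was at 135 min for 29 members and at 120 min for 16. DBP3 had no value at 135 min and was counted at 165 min. Over all libraries without phosphate, 38 members had their lowest listed value at 30 or 45 min (18 and 20), and 10 had it at 135 min. Members without a value in a library may have been lower there.

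**Figure D3:**
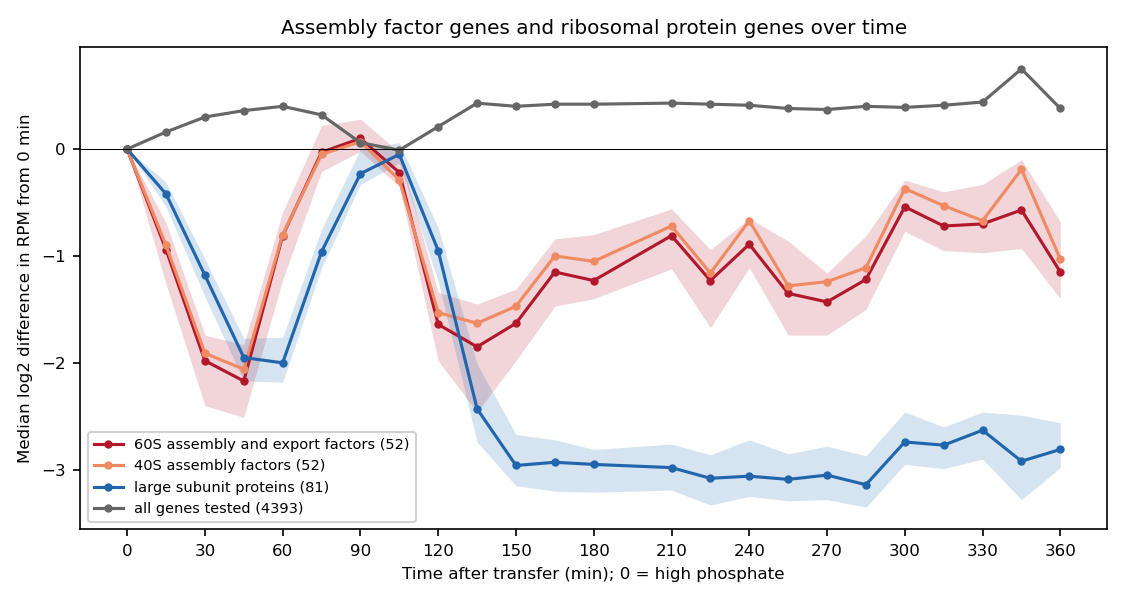
Median log2 difference in RPM from 0 min (y axis) against time after transfer in min (x axis) for the 52 members, 52 tested 40S assembly factor genes, 81 large subunit protein genes and all tested genes, with bands from the lower to the upper quartile for the members and the large subunit proteins; 195 min is left out because 26 of the 52 members have no value there. The members and the 40S factors run together, while the large subunit proteins are still at -2.0 at 60 min, when the members are at -0.81, and end at -2.81 against -1.15.

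The proteins that these factors assemble came from genes with another time course. The 81 large subunit protein genes had median changes of -0.42, -1.18, -1.95 and -2.0 at 15, 30, 45 and 60 min, against -0.94, -1.98, -2.17 and -0.81 for the members. At 75, 90 and 105 min they stood at -0.96, -0.23 and -0.05, against -0.03, 0.10 and -0.22 for the members. From 150 min on their medians lay at -2.63 or lower (195 min, with its missing genes, at -2.28), and at 360 min they were at -2.81, against -1.15 for the members. Genes for 40S assembly factors (52 tested) stood within 0.38 of the members in every library, with -2.06, 0.07, -1.63 and -1.03 at 45, 90, 135 and 360 min. The 7 RNA polymerase I subunit genes had -2.35, 0.21, -2.0 and -1.21 in these libraries. The timing of these lists was not tested against that of the members.

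For tests, the libraries without phosphate were taken in windows of 4 neighbours, which stand in for replicates because no time point has one. The p-values therefore measure the spread between neighbouring time points, and real change within a window widens that spread. The 60 min library was already rising and the 120 min library already low, so that windows mix phases. The single 0 min library is assumed to vary like the rest. In a comparison with 0 min, the lack of phosphate and the handling (washing, fresh medium, hours in culture) cannot be told apart.

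The first fall was tested as 15 to 60 min against high phosphate. All 52 differences were below 0, with a median of -1.53 and a range from -2.81 to -0.65, where the median of all tested genes was 0.30. Lower calls at an adjusted p under 0.05 were made for 11 of 52 members, where 3.14% of all tested genes were called lower, and 0 members were called higher (11.8% of all). A further 34 passed only before adjustment, 45 in all. The 11 were the helicase genes DBP2 and DBP9, YTM1 and RLP7 of the processing factors, MAK16, the 5S particle gene RPF2, RSA4 and SDA1 of the late nuclear factors, and the export and cytoplasmic factors ARX1, BUD20 and REI1. REI1 passed narrowly (adjusted p = 0.0499) and had no value at 30 min. Lower calls were also made for 11 of 52 genes for 40S factors, 3 of 33 other 60S factors, 3 of 7 RNA polymerase I subunits and 42 of 81 large subunit proteins. The count was 2 without the 30 min or the 45 min library, 31 without 15 min, 26 without 60 min and 35 without 120 min. Lower calls over all genes were then 47, 17, 321, 143 and 288 without 30, 45, 15, 60 and 120 min, against 138. The member count was 4 to 7 without 285, 150, 330, 180, 210, 240, 315 or 360 min, which enter only through the shared spread. In those fits 75 to 96 of all genes were called lower. With libraries centred on their median gene 24 members were called, and the calls over all genes were then 246 lower and 193 higher, against 138 and 517 as deposited.

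DBP2, a DEAD-box helicase of rRNA processing and mRNA packaging (chromosome XIV, 413639 to 416281), had 7.73, 6.49, 5.65 and 6.65 log2 RPM at 15, 30, 45 and 60 min, against 9.44 in high phosphate. All 4 lay below 0 min, and this was the widest gap among the members (7.01-fold lower, difference -2.81, SE 0.69, limma adjusted p = 0.0112). At 90 min DBP2 was at 8.73 log2 RPM, the farthest below its 0 min level of any member.

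YTM1 (chromosome XV, 832813 to 834195), which joins NOP7 and ERB1 in a complex needed to process the spacer between the 5.8S and 25S rRNAs, had 5.30, 4.58, 4.83 and 5.99 log2 RPM, against 7.55 in high phosphate (5.19-fold lower, difference -2.38, SE 0.58, adjusted p = 0.0112). It was low from the first library on. SDA1, a late nuclear factor needed for export of the particle, had 6.61, 5.0, 4.51 and 6.44, against 7.80 (difference -2.16, SE 0.70, adjusted p = 0.0416). ARX1, which binds the tunnel exit and the pore during export (chromosome IV, 655686 to 657467), had 5.82, 5.17, 5.40 and 6.48, against 7.58 (difference -1.86, SE 0.60, adjusted p = 0.0430).

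Several members with gaps as wide did not pass. RRS1, which with RPF2 brings in the 5S rRNA particle, had 6.23, 4.46, 4.95 and 6.05 log2 RPM, against 7.58 in high phosphate (difference -2.16, SE 0.77, adjusted p = 0.0565). RPF2, which did pass, had 7.02, 6.35, 5.51 and 6.74, against 8.21 (difference -1.80, SE 0.58, adjusted p = 0.0427). DRS1, MAK21 and DBP3 lay at -2.02, -2.0 and -2.05 with adjusted p = 0.0763, 0.0639 and 0.0671. The SDs over their 4 libraries were 1.15, 1.23 and 1.41. At the other end, SPB4 and TIF6 both lay at -0.65. TIF6, which keeps the subunits from joining early, had 7.48, 7.06, 6.89 and 7.05, against 7.77, and SPB4 had 5.91, 5.24, 5.97 and 6.46, against 6.55. LOC1 (-0.73) and NOP16 (-0.75) came next, and none of these 4 passed.

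**Figure D4:**
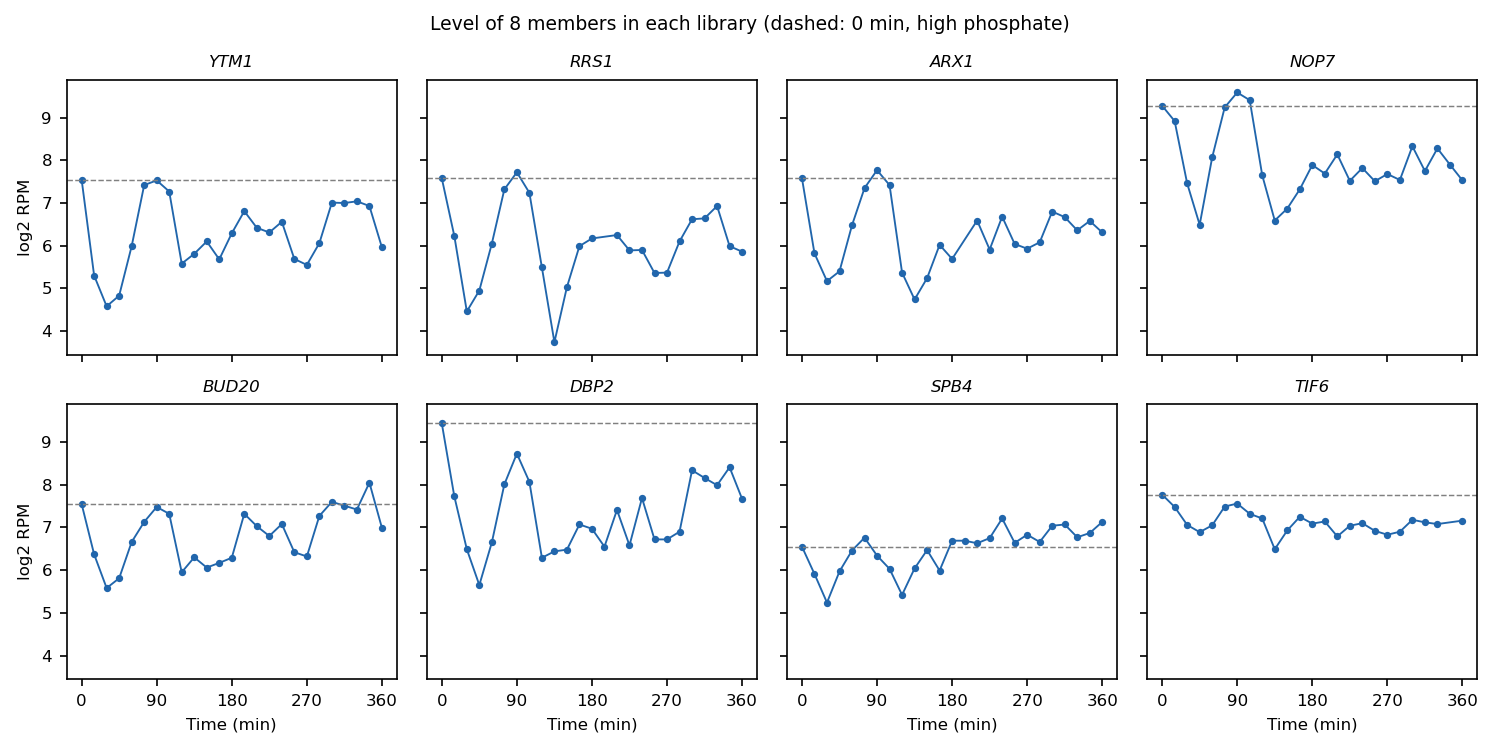
Level in log2 RPM (y axis) against time in min (x axis) for 8 members, 1 panel each, with a point for each library in which the gene is listed and a dashed line at the 0 min, high phosphate level. YTM1, RRS1, ARX1 and NOP7 meet the dashed line near 90 min, DBP2 stays under it at 8.73, and TIF6 moves little.

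The return was tested as 75 to 120 min against 15 to 60 min. All 52 differences were above 0 (median 1.09, range 0.24 to 1.77, all tested genes -0.15), and 28 of 52 members were called higher, where 4.87% of all tested genes were. No member was called lower (11.4% of all), and 47 passed before adjustment. The count rested on single libraries. It was 0 without the 90 min or the 105 min library, 1 without 30 or 45 min, 5 without 75 min and 49 without 120 min. Higher calls over all genes moved likewise, to 1, 2, 14, 6, 141 and 494 without 90, 105, 30, 45, 75 and 120 min, against 214. In no member did all 4 later libraries lie above all 4 earlier ones (0 of 52, against 1.41% of all genes), and in none did all 4 lie below (6.53% of all). The 120 min library was low again. Centred on their median gene, the libraries gave 38 members, and 237 lower and 310 higher calls over all genes, against 501 and 214 as deposited.

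By role, higher calls were made for 8 of 11 A3 and spacer processing factors, 2 of 2 5S particle factors, 2 of 3 GTPases, 4 of 7 late nuclear factors, 4 of 7 export and cytoplasmic factors, 5 of 12 other early nucleolar factors, 3 of 8 helicases and 0 of 2 methyltransferases. YTM1 had 7.42, 7.53, 7.27 and 5.58 log2 RPM at 75, 90, 105 and 120 min, against 5.30, 4.58, 4.83 and 5.99 at 15 to 60 min (3.42-fold higher, difference 1.77, SE 0.37, adjusted p = 0.00799). Its 120 min value lay among the earlier ones. DBP3 followed with 1.70 (SE 0.49, adjusted p = 0.0257), on 7.16, 7.63, 7.12 and 5.51 against 6.69, 4.32, 3.65 and 5.96. The 30 min value of DBP3 equals the listing limit of that library, 10 reads, and its 45 min value lies near the limit there (3.51).

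MAK21, a scaffold protein of early precursors also called NOC1, rose 2.95-fold (difference 1.56, SE 0.47, adjusted p = 0.0286). Its values were 8.12, 8.18, 8.04 and 6.16 at 75 to 120 min, against 7.35, 4.70, 5.40 and 6.80 at 15 to 60 min. RRS1 (1.52, SE 0.49) and RPF2 (1.15, SE 0.37) both passed, with adjusted p = 0.0372 and 0.0376. The GTPase genes NUG1 and NOG2 rose by 1.31 (SE 0.39) and 1.27 (SE 0.38), with adjusted p = 0.0279 and 0.0280, while NOG1 had the same difference as NUG1 but a wider spread (1.31, SE 0.49, adjusted p = 0.0670). Among export factors, ARX1 (1.26), RLP24 (1.24), ECM1 (1.23) and NMD3 (1.05) passed. NMD3 is the adaptor that hands the particle to the exportin Crm1.

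Some members did not pass. SPB4 (0.24, adjusted p = 0.532) and TIF6 (0.27, adjusted p = 0.287) had small differences. MAK5, a helicase gene, had 6.83, 6.94, 6.5 and 4.42 log2 RPM, against 6.40, 5.70, 5.15 and 6.08, so that its 120 min library was the lowest of the 8 (difference 0.34, adjusted p = 0.625). DBP2 had 8.01, 8.73, 8.07 and 6.29, against 7.73, 6.49, 5.65 and 6.65 (difference 1.14, SE 0.44, adjusted p = 0.0688).

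**Figure D5:**
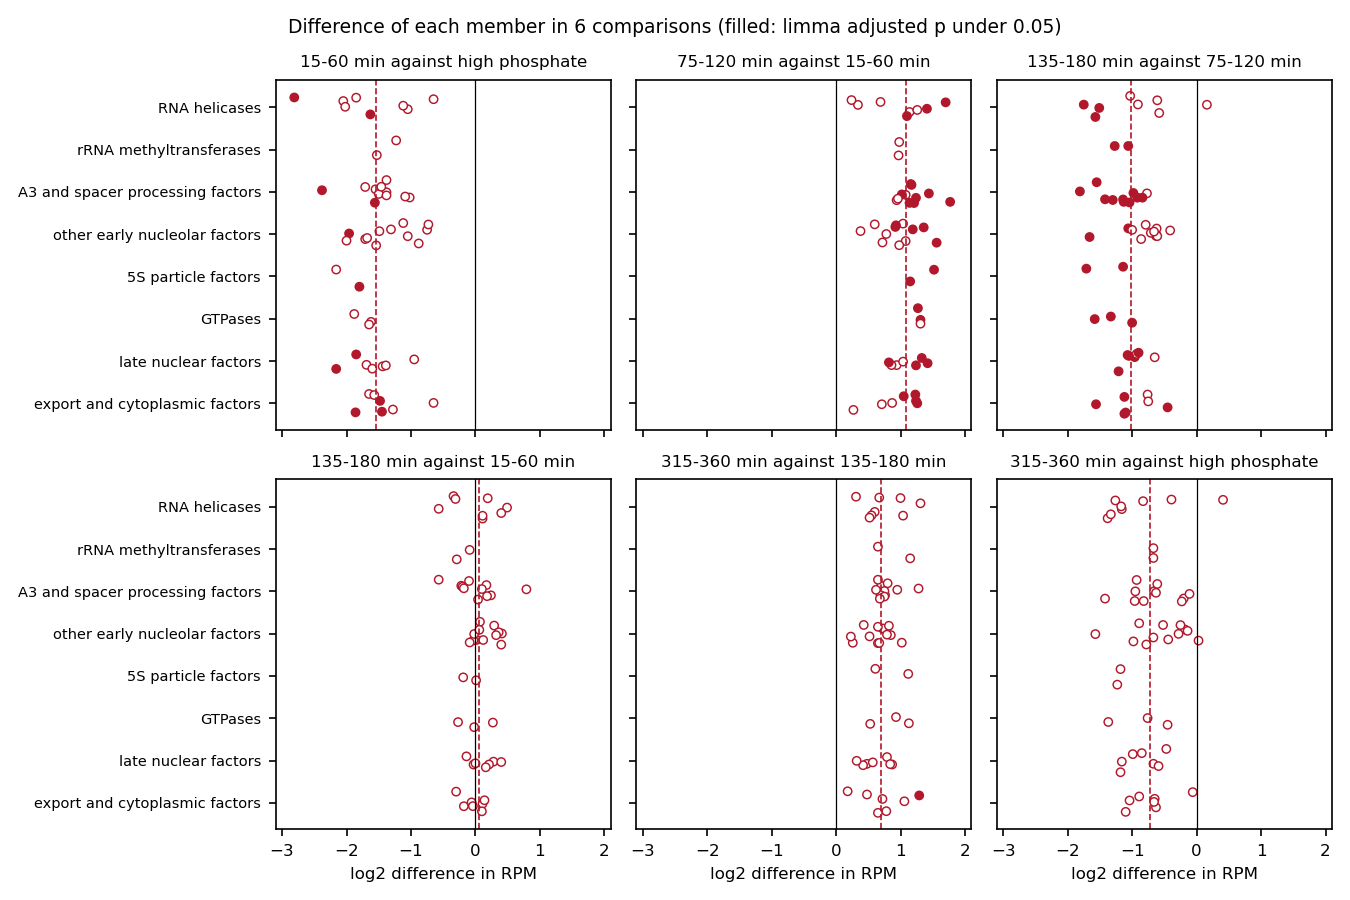
Log2 difference in RPM (x axis) of each of the 52 members by role (y axis) in 6 comparisons, 1 panel each, with filled circles for limma adjusted p under 0.05 and a dashed line at the median of the members; vertical scatter within a role has no meaning. Medians are -1.53, 1.09 and -1.01 in the upper panels and 0.05, 0.70 and -0.72 in the lower ones.

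The second fall was tested as 135 to 180 min against 75 to 120 min. Differences lay below 0 in 51 of 52 members (median -1.01, range -1.81 to 0.16, all tested genes 0.27). Lower calls were made for 32 of 52, where 8.63% of all tested genes were called lower, with 0 called higher (25.1% of all) and 44 passing before adjustment. By role these were 10 of 11 A3 and spacer processing factors, both methyltransferases, both 5S particle factors, all 3 GTPases, 5 of 7 late nuclear, 5 of 7 export and cytoplasmic factors, 3 of 8 helicases and 2 of 12 other early nucleolar factors. The groups again overlapped in every member (0 of 52 with all later libraries below, against 5.76% of all genes, and 0 with all above, against 20.3%). The count was 5 without 90 min, 7 without 135 min, 9 without 75 min, 10 without 105 min, 14 without 150 min and 51 without 120 min. Lower calls over all genes were then 230, 264, 289, 256, 289 and 546 in the same order, against 379. Centred on their median gene, the libraries gave 43 members, and 522 lower and 429 higher calls over all genes, against 379 and 1104 as deposited.

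NOP7 (chromosome VII, 695417 to 697234), partner of YTM1 and ERB1, led the second fall. It had 6.59, 6.87, 7.32 and 7.89 log2 RPM at 135, 150, 165 and 180 min, against 9.24, 9.59, 9.41 and 7.65 at 75 to 120 min (3.49-fold lower, difference -1.81, SE 0.40, adjusted p = 0.00144). HAS1 (chromosome XIII, 850074 to 851591), a helicase that acts on both subunits, had 4.81, 4.45, 5.15 and 5.78, against 6.83, 7.37, 7.32 and 5.65 (difference -1.75, SE 0.40, adjusted p = 0.00221). In both genes the highest of the later libraries lay just above the 120 min value, and below the other 3.

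RRS1 (chromosome XV, 868340 to 868951) had 3.74, 5.03, 5.99 and 6.17, against 7.32, 7.72, 7.24 and 5.49 (difference -1.71, SE 0.49, adjusted p = 0.00990). Its 135 min value equals the listing limit of that library, 10 reads. ARX1 had 4.74, 5.24, 6.02 and 5.69, against 7.35, 7.77, 7.42 and 5.37 (difference -1.56, SE 0.38, adjusted p = 0.00351). NUG1 (chromosome V, 162723 to 164285) had 5.33, 5.72, 5.99 and 6.55, against 7.94, 8.14, 7.71 and 6.13 (difference -1.58, SE 0.39, adjusted p = 0.00348). MAK21, DRS1 and ERB1 fell by 1.66, 1.57 and 1.55 (SE 0.47, 0.50 and 0.47), with adjusted p = 0.00928, 0.0190 and 0.0139.

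The methyltransferase genes NOP2 and SPB1, which modify the 25S rRNA, fell by 1.27 (SE 0.42) and 1.06 (SE 0.35), with adjusted p = 0.0221 and 0.0219, though neither had passed in the first fall (-1.53 and -1.23, adjusted p = 0.106 and 0.120). TIF6 passed narrowly, with 6.49, 6.93, 7.25 and 7.09 log2 RPM against 7.49, 7.56, 7.32 and 7.21 (difference -0.45, SE 0.18, adjusted p = 0.0497). SPB4 was the 1 member with a difference above 0. It had 6.04, 6.47, 5.99 and 6.69, against 6.76, 6.34, 6.03 and 5.42 (difference 0.16, 95% interval -0.36 to 0.67, adjusted p = 0.658), and the sign was negative with libraries centred on their median gene (-0.08) or without 120 min (-0.08).

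Both falls can be set side by side, because they share no library. Of the 11 members called in the first fall and the 32 in the second, 5 were the same (45.5% of the first, 15.6% of the second): ARX1, RLP7, RPF2, SDA1 and YTM1. The second fall called 32 of all 52 members, and the overlap was not tested against that share. Across the 52 members the sizes of the falls had Pearson's r = 0.63 and Spearman's rho = 0.64, or 0.59 and 0.61 without SPB4. This is across genes, which share the depth of each library and are not independent replicates. DBP2 lay at -2.81 in the first fall and -1.03 in the second (adjusted p = 0.0676), YTM1 at -2.38 and -0.98, NOP7 at -1.55 and -1.81, and HAS1 at -1.85 and -1.75.

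The levels of both low phases were compared as 135 to 180 min against 15 to 60 min. No member was called in either direction by limma, where 3.48% of all tested genes were called lower and 2.07% higher, and 1 of 52, YTM1, passed before adjustment. YTM1 had 5.81, 6.10, 5.68 and 6.29, against 5.30, 4.58, 4.83 and 5.99 (difference 0.79, 95% interval 0.04 to 1.55, adjusted p = 0.274). Differences of the members ran from -0.57 to 0.79, and the median was 0.05, or -0.03 with libraries centred on their median gene. With libraries weighted by limma, from their spread around the window means, 2 members were called. Of all tested genes 201 were then called lower and 259 higher. In the same comparison 76 of 81 large subunit protein genes and 49 of 55 small subunit protein genes were called lower, with medians of -1.40 and -1.45. Over all genes the calls were 153 lower and 91 higher, or 146 and 34 centred.

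The late phase was compared as 315 to 360 min against 135 to 180 min. All 52 differences were above 0, from 0.18 to 1.31 (median 0.70, all tested genes 0.13), and the median stayed above 0 with libraries centred on their median gene (0.43), where LOC1 (-0.03) and NOP16 (-0.01) went below 0. Only BUD20 was called higher (1 of 52, where 3.03% of all tested genes were), 0 were called lower (1.32% of all), and 22 passed before adjustment. In 13 of 52 members (25.0%) every later library lay above every earlier one, against 13.3% of all genes, and in 0 did every one lie below (6.65% of all). The BUD20 call was the one lost without 150, 165 or 345 min, and 4 members were called without 120 min. Higher calls over all genes were then 68, 60, 98 and 201 in the same order, against 133. The large subunit protein genes had a median difference of 0.09 in these libraries, and 0 of 81 were called. Over all genes there were 58 lower and 133 higher calls, or 225 and 50 centred.

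BUD20, a shuttling factor needed for export (chromosome XII, 281956 to 282456), had 7.51, 7.42, 8.05 and 6.99 log2 RPM at 315, 330, 345 and 360 min, against 6.30, 6.06, 6.17 and 6.29 at 135 to 180 min (2.44-fold higher, difference 1.29, SE 0.31, adjusted p = 0.0198). The groups did not overlap. DBP2 had a difference of the same size (1.31, SE 0.44, adjusted p = 0.0776), on 8.16, 7.99, 8.41 and 7.67 against 6.44, 6.48, 7.07 and 6.97, also with no overlap. ERB1 (1.28, SE 0.47, adjusted p = 0.103) had 7.22 in the shallow 345 min library and 5.20 at 360 min. MDN1, the row for REA1, was called with 1.43 (SE 0.32, adjusted p = 0.0121), and it had fallen and risen in the earlier comparisons too (-1.62, 1.44 and -1.55, adjusted p = 0.0359, 0.00995 and 7.12e-04).

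The end of the course was compared with its start as 315 to 360 min against high phosphate. Differences lay below 0 in 50 of 52 members (median -0.72, range -1.57 to 0.41, all tested genes 0.46). None was called by limma, where 5.51% of all tested genes were called lower and 28.2% higher, and 4 passed before adjustment. Centred on their median gene, the libraries gave 11 members called lower, and 530 lower and 388 higher calls over all genes, against 242 and 1238 as deposited. MAK21 had 6.82, 6.91, 5.87 and 6.34 log2 RPM, against 8.06 in high phosphate (difference -1.57, SE 0.74, adjusted p = 0.104), and NOP7 had 7.75, 8.28, 7.90 and 7.53, against 9.28 (difference -1.42, adjusted p = 0.0862).

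SPB4 (chromosome VI, 145114 to 146934) had 7.07, 6.77, 6.87 and 7.13, against 6.55 (difference 0.41, 95% interval -0.41 to 1.23, adjusted p = 0.448), and its sign turned with libraries centred on their median gene (-0.26). Of large subunit protein genes, 80 of 81 were called lower in this comparison, with a median of -2.84.

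A test of change over the 24 libraries without phosphate that needs no windows, a smooth curve of time with 6 degrees of freedom, called 5 of 52 members, where 28.5% of all tested genes were called. They were SPB4 (adjusted p = 0.00182), the GTPase gene NOG2 (0.0103), RSA4 (0.0160), BUD20 (0.0387) and RRP15 (0.0435). YTM1 (0.0508) and SSF1 (0.0639) came next, and the values of SSF1, which has the near-identical copy SSF2, were whole reads in 10 of 24 libraries only. Whether reads were divided between these copies was not tested. A curve with 8 degrees of freedom called 37 members, and leaving out the 15 min library gave 51, 45 min 31 and 60 min 9. Of all 4393 genes, these fits called 2189, 2029, 1550 and 1352 in the same order, against 1250 with 6 degrees of freedom and all 24 libraries. Leaving out 150, 165, 225, 240, 285, 300, 315, 330 or 345 min gave 3 members, and 1076 to 1268 of all genes. Of large subunit protein genes the curve with 6 degrees of freedom called 79 of 81.

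Members with the longer PAC form had larger median differences than those without, in all 3 of the first comparisons. They were -1.56 with (31 members) and -1.45 without (21) in the first fall, 1.19 and 0.96 in the return, and -1.12 and -0.86 in the second fall. For the RRPE core (45 members with, 7 without) they were -1.56 and -1.38, 1.14 and 1.08, and -1.0 and -1.04, so that the second fall went the other way. The ranges for the longer PAC form overlapped, -1.81 to -0.41 with and -1.71 to 0.16 without in the second fall, and the difference between these groups was not tested.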

How the data were processed

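RNA-seq of 25 libraries was used from the table that the authors deposited, whose values are log2 RPM. The submitters' processing notes name Bowtie and R64. Which version, annotation, counting tool and filters were used is not given in the sources used here. Although the series text describes ratios to time 0, the deposited log2 values are levels. Of 6701 rows, 51 without a name and 1 name shared by several rows were left out. Depth was read from the spacing of low values, which were whole reads (within 0.02) for 93.5% to 95.4% of values of a library, and intervals cover spread between libraries only. Of the members, 25 were listed in all 25 libraries, 22 in 24 and 5 in 23, and 26 had no value at 195 min. Values were also missing for 3 members at 30 min (IPI1, IPI3 and REI1). At 345 min 2 had none (NOP2 and TIF6), and at 135 min 1 had none (DBP3). A gene without a value in a library was dropped from the fit there.

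Log2 values of 4393 genes, listed at 0 min and in at least 3 of 4 libraries of each of 6 windows, entered a linear model in limma 3.58.1 (R 4.3.3), with 0 min and the windows as levels. Tests were two-sided, with Benjamini-Hochberg adjustment over all 4393 genes and a threshold of 0.05. All 52 members were tested. Separate cultures for the time points are not mentioned in the labels. Named genes are 27 members chosen for their roles and the 3 largest and 3 smallest signed differences in each comparison. Members, lists, windows and motifs were chosen with earlier results of these data known. The fits were tested on simulated data with independent noise in each library and no change within a window. That simulation does not cover windows that mix phases or neighbours that vary together. Alternatives covered scaling, a pseudocount of 10 RPM, filters, missing values, the prior, library weights, window width and leaving out libraries. A count model was not used, because the deposited unit is log2.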

Additional observations from a re-analysis of the deposited data

Results flagged for a closer look

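In windows of 4 neighbouring libraries, 232 sets of values were examined for 1 library far from the other 3, and 23 had one. Chance flags about 1 in 20, or 11.6 of them, where the 4 libraries of a window differ only at random. Here windows mix phases of the course, and the medians include genes that are also examined singly. The 23 therefore cannot be set against 11.6 as a test. Values below are log2 RPM, with the range of the other 3 libraries after each.

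At 120 min 12 sets stood low, against the 75, 90 and 105 min libraries. They were DRS1 at 4.6 (others 6.76 to 7.19), MAK21 at 6.16 (8.04 to 8.18), RIX1 at 5.60 (7.67 to 7.83), RLP7 at 7.05 (8.42 to 8.65), RPF2 at 6.10 (7.93 to 8.26), SDA1 at 5.37 (7.48 to 7.87) and YTM1 at 5.58 (7.27 to 7.53). The others were medians of role groups: A3 and spacer processing factors at 6.45 (7.95 to 8.25), export and cytoplasmic factors at 5.95 (7.32 to 7.56), late nuclear factors at 5.60 (7.45 to 7.79), other early nucleolar factors at 6.32 (7.69 to 7.90) and methyltransferases at 5.21 (6.62 to 6.85).

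At 300 min 6 sets stood high, against 255, 270 and 285 min: ARX1 at 6.80 (5.93 to 6.08), DBP2 at 8.34 (6.72 to 6.90), MAK21 at 7.31 (6.32 to 6.47), NMD3 at 7.12 (6.19 to 6.26), RIX1 at 7.36 (5.93 to 6.04) and the median of export and cytoplasmic factors at 7.12 (6.19 to 6.26). At 360 min 4 stood low, against 315, 330 and 345 min: YTM1 at 5.96 (6.93 to 7.04), the medians of export and cytoplasmic factors at 6.31 (7.08 to 7.17) and of other early nucleolar factors at 6.78 (7.27 to 7.36), and the median of all 52 members at 6.63 (7.06 to 7.09). RRP15 stood high at 180 min with 7.22 (6.97 to 7.01).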

How the results depend on the processing

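No paired analysis was possible because the labels carry no replicate numbers. The counts of members called depended on single libraries, and the cause was not tested. Leaving out 1 library at a time gave 2 to 35 members called in the first fall, 0 to 49 in the return, 5 to 51 in the second fall, 0 to 0 between both low phases, 0 to 4 for 315 to 360 against 135 to 180 min, 0 to 3 for 315 to 360 min against high phosphate and 3 to 51 for the curve of time. Over all genes the first 3 ranges were 17 to 321 lower, 1 to 494 higher and 230 to 546 lower, and the curve called 951 to 2029. With libraries weighted by limma (a fit that stopped before full convergence) the 7 member counts were 50, 51, 51, 2, 16, 11 and 50. Weighted calls over all genes were 506 lower, 638 higher and 592 lower in the first 3 comparisons. For the rest, in order, they were 201 lower and 259 higher, 683 higher, 375 lower and 1049. Windows of 3 libraries, made by leaving out 15, 120 and 180 min, gave 44, 50 and 51 members in the first 3 comparisons. Over all genes there were then 398 lower, 548 higher and 549 lower calls. Without 15 min alone the first fall already had 31 members (321 lower calls over all genes). Without 120 min alone the return and the second fall had 49 and 51 (494 higher and 546 lower over all genes). Without 90 and 105 min together the return had 0 members and 0 calls over all genes. The second fall then had 0 members, with 142 lower and 115 higher calls over all genes.

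Centring libraries on the median of tested genes gave 24 in the first fall, 11 at 315 to 360 min against high phosphate and 0 for the curve, and centring on genes listed in all 25 libraries gave 30, 5 and 3. Over all genes the first centring gave 246 lower, 530 lower and 777 calls here, and the second 325, 467 and 1103. The median of all genes in the first fall was -0.03 and -0.02 with these centrings, against 0.30 as deposited. With only genes listed in all 25 libraries, which leaves 25 members, the return and the second fall had 17 each. Of the 2205 genes in that fit, 176 were called higher in the return and 270 lower in the second fall. Filling missing values at the listing limit gave 4 in the first fall, where 65 of all genes were called lower. Without 195 and 345 min, 0 were called at 315 to 360 against 135 to 180 min (129 of all genes higher) and 1 by the curve (1316 of all genes). A curve with 8 degrees of freedom called 37 (2189 of all genes).

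Signs were followed only for the members named in each comparison, few of them between both low phases, where differences lay near 0. These turned in 19 cases, none of them a called value. MAK5 had -0.21 in the return without 90 and 105 min. SPB4 in the second fall had -0.08 and -0.07 with the 2 centrings, -0.22 in windows of 3, and -0.08 to 0.36 with 1 library left out (lowest without 120 min). HAS1 between both low phases had 0.03 weighted and -0.58 to 0.02 with 1 left out (highest without 15 min). At 315 to 360 against 135 to 180 min, TIF6 had -0.17 with missing values filled, and LOC1 and NOP16 had -0.03 and -0.01 centred on the median. At 315 to 360 min against high phosphate, ERB1 had -0.59 to 0.08 and BUD20 -0.24 to 0.11 with 1 left out (highest without 360 min); RRP15 had -0.65 and -0.45 with the 2 centrings, -0.07 weighted, -0.09 without 345 min and -0.09 without 195 and 345 min; and SPB4 had -0.26 and -0.07 with the 2 centrings. Members near 10 reads have coarse values, such as those at 195 min.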
